A study of Mus musculus with 6 samples.

Results

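Smooth muscle contractile genes were followed in ribosome-associated RNA of neonatal mouse kidney. The 10 genes, chosen by name from the 48587 rows of the deposited count table, were Acta2, Actg2, Tagln, Cnn1, Tpm2, Lmod1, Myh11, Myl9, Des and Myocd. All 10 passed the filter on low counts. Smooth muscle shortens when myosin, switched on by phosphorylation of its regulatory light chain, pulls on actin filaments that are decorated with tropomyosin and calponin. In the kidney this machinery is known from the walls of arteries and arterioles and from the muscle around the pelvis and ureter, and not from tubule epithelium. Most of these genes are activated by serum response factor (SRF), which binds the CArG box and is assisted by the coactivator myocardin, the product of Myocd.

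There were 3 libraries from Foxp1-deficient animals (Cdh16Cre;Foxp1fl/fl;RiboTag) with the treatment label chronic acid load, and 3 from littermate controls (Cdh16Cre;Foxp1fl/+;RiboTag) with the treatment label vehicle. The protocols describe no acid load, so genotype and treatment label cannot be told apart. All 6 libraries thus came from animals with Cre under control of Cdh16, which encodes a cadherin of tubule epithelium, at least 1 floxed allele of Foxp1, a forkhead transcription factor gene, and RiboTag, which puts an HA tag on ribosomes of cells with Cre activity. Tagged ribosomes were pulled down with anti-HA beads and their RNA was sequenced, and input RNA was not analysed here. No label says whether replicates are separate animals, and p-values therefore measure spread between libraries that may be technical.

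Promoter sequences are shown for the 3 members whose window held a CArG box or a match with 1 letter off, because this box is the shared control element of the family. The windows run from 250 bases before to 50 after the RefSeq transcript start (build GRCm38.p6), written 5′ to 3′ on the transcript strand, with the matches in capitals.
Acta2, chr19:34255324-34255623, minus strand: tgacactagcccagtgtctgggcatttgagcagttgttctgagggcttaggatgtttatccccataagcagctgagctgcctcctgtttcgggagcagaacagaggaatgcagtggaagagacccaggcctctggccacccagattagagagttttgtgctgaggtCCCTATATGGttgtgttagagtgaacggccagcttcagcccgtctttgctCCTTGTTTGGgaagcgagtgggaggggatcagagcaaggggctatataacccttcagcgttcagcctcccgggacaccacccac
Myl9, chr2:156775214-156775513, plus strand: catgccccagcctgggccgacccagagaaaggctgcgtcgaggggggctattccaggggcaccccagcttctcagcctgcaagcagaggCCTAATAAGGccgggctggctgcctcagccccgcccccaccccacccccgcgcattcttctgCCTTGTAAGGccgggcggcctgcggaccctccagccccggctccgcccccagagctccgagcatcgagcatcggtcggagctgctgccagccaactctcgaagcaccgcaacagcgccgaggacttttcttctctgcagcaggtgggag
Lmod1, chr1:135324563-135324862, plus strand: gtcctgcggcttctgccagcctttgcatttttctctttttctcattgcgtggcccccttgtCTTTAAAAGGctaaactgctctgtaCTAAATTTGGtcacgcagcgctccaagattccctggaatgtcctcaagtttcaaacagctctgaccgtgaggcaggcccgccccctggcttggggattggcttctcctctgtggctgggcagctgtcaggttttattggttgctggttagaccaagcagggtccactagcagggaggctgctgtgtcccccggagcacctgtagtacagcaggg
RefSeq promoters were at hand for 6 of the 10 genes. The Myl9 window held 1 exact CArG box at position -161 and 1 match with 1 letter off at -99, counted from the transcript start to the first base of the match. Acta2 held matches with 1 letter off at -84 and -34, and Lmod1 at -189 and -164. The windows of Cnn1, Des and Tpm2 held neither form, and Tagln, Myh11, Actg2 and Myocd were the members with no window. The box is palindromic, so both strands were covered by 1 search. Of 32851 promoter windows of this length, 1.63% held an exact box, 21.1% a match with at most 1 letter off, and 3.7% such matches at 2 or more positions. The forkhead motif TGTTTAC, searched on both strands, was in 0 of the 6 windows and in 3.65% of all windows. The RefSeq start lay 37, 28 and 37 bases upstream of the authors' annotated gene start for Acta2, Cnn1 and Des. It lay 44 and 6 bases downstream of that start for Myl9 and Lmod1. For Tpm2 it lay 211 bases downstream, so most of the Tpm2 window was inside the authors' gene and little of it before their start.

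The libraries held between 9710048 and 18958196 counts. A count of 0 allows up to 3 counts, or 0.158 to 0.309 CPM, where CPM are counts scaled to a library total of 1000000. These limits cover counting error only. Foxp1 had 36.3, 9.17 and 33.7 CPM in Foxp1-deficient libraries 1, 2 and 3, against 51.4, 26.0 and 40.5 CPM in control libraries 1, 2 and 3, a log2 fold change of -0.62 ± 0.49 (SE) that did not pass edgeR's quasi-likelihood test (adjusted p = 0.9998). The counts cover all Foxp1 exons and not only the floxed part, so they check the genotype label only in part. Cdh16, the gene that drives Cre, was at 0.297, 1.96 and 48.5 CPM in Foxp1-deficient and 0.35, 9.23 and 48.6 CPM in control libraries, so the defining marker of the labelled tubular cells was near 0 in both libraries numbered 1. The libraries numbered 2 stood apart in both groups. They had fewer genes detected (14285 in the Foxp1-deficient and 13885 in the control library, against 18241 to 22190 in the other 4) and more ribosomal-type RNA (8.72% and 6.65% of counts, against 1.49% to 2.85%). Libraries with the same number deviated from their group means together, so values are also given within pairs 1, 2 and 3, and fits were run with and without a replicate block.

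The 10 genes together took 1.18%, 0.87% and 0.66% of all counts in Foxp1-deficient libraries 1, 2 and 3, against 1.49%, 2.16% and 1.22% in control libraries 1, 2 and 3. The summed share of counts was thus lower in every Foxp1-deficient library than in any control library, by a small gap (1.18% against 1.22%). That gap depended on the scaling. With edgeR's TMM factors, which rescale library totals, Foxp1-deficient library 1 (factor 1.054) lay above control library 3 (factor 1.133). Acta2 and Tagln, whose own levels overlapped between the groups, made up most of the sum in each library. In Foxp1-deficient library 1 they had 6096 and 3661 of 11824 CPM. Of the 10 genes, 9 had a negative log2 fold change and 9 were lower in all 3 pairs, with Myocd the exception on both counts. Among all 14311 genes tested, 46.4% had a negative log2 fold change and 16.1% were lower in all 3 pairs. The median log2 fold change was -1.01 over the 10 genes and 0.03 over all genes tested. None of the 10 passed the threshold in the fit without the block, in edgeR's quasi-likelihood test with Benjamini-Hochberg adjustment at 0.05, where 0% of all genes passed, and 99 genes (0.692%) were under an unadjusted p of 0.05. The adjusted p was 0.9998 for each member. Lmod1 was the 1 member under that unadjusted p and lower, against 0.168% of all genes. Without both libraries numbered 2, 9 genes were still lower and the median was -0.52. Leaving out control library 2 alone left 8 lower, with a median of -0.55. In RNA pulled down from whole kidney homogenate, fewer cells of a type, less RNA per cell and less of it on tagged ribosomes cannot be told apart. Input RNA was not analysed, so whether the RNA of these genes came from tagged ribosomes was not tested.

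**Figure D1:**
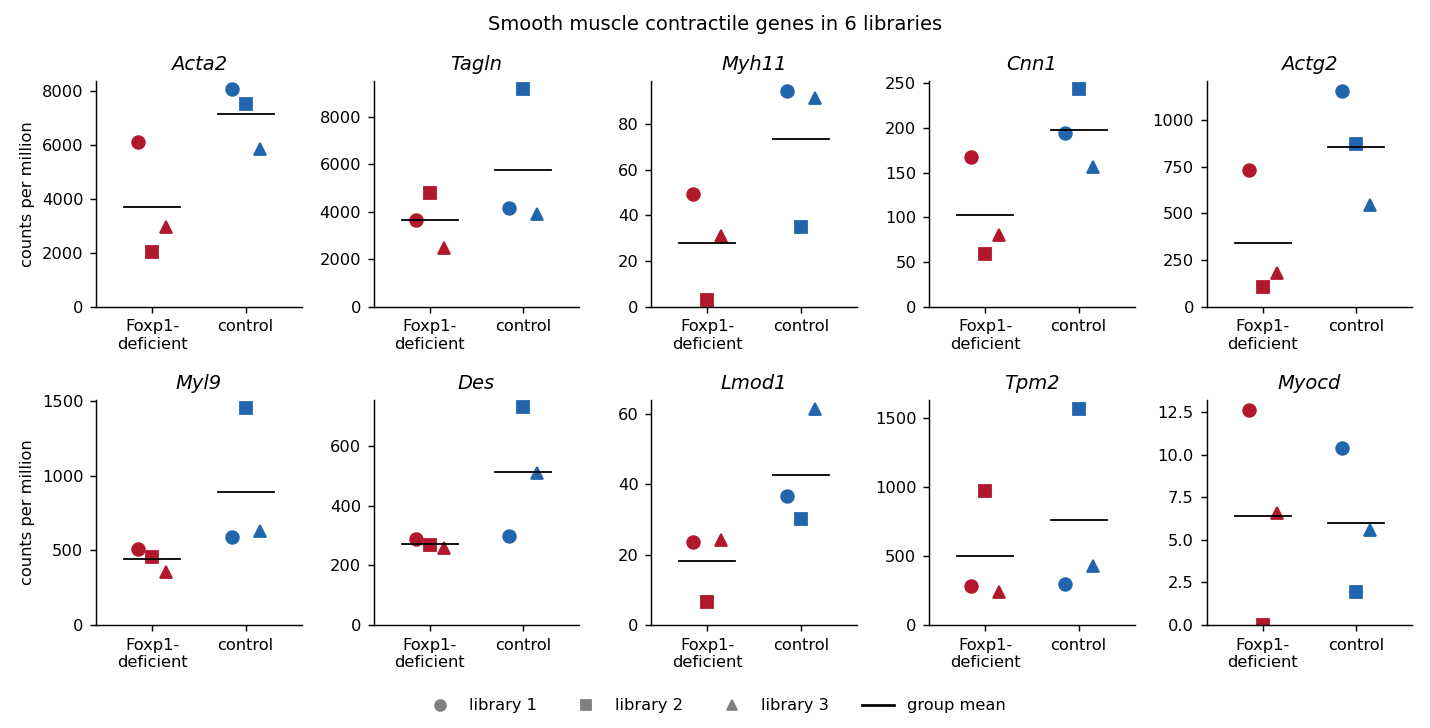
CPM of the library total (vertical axes, each from 0) for the 10 smooth muscle contractile genes in 3 Foxp1-deficient (red) and 3 control (blue) libraries. Symbols give the library number and lines the group mean. On this scale Myl9, Des and Lmod1 have no overlap between the groups, whereas Myocd lies at like levels in both. After TMM scaling only Lmod1 has none.

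Actins form the thin filament itself. Acta2 (chr19:34241090-34255336, minus strand, mm10) encodes the smooth muscle alpha-actin of the contractile filament. It had 6096, 2032 and 2939 CPM in Foxp1-deficient libraries 1, 2 and 3, against 8057, 7516 and 5824 CPM in control libraries 1, 2 and 3. Foxp1-deficient libraries 2 and 3 lay below every control library, and Foxp1-deficient library 1 lay just above control library 3. Actg2 (chr6:83512905-83536265, minus strand) encodes the gamma-actin of visceral smooth muscle. Its levels were 732, 106 and 182 CPM in Foxp1-deficient libraries, against 1157, 870 and 546 CPM in control libraries. The same Foxp1-deficient library 1 reached into the control range, and the other two lay far below it. The log2 fold change was -1.0 ± 0.56 for Acta2 and -1.41 ± 0.75 for Actg2 (SE, 3 against 3 libraries), with unadjusted p of 0.116 and 0.101 in edgeR's quasi-likelihood test. With the replicate block the edgeR values were -1.08 ± 0.30 and -1.74 ± 0.47, with an adjusted p of 0.868 for each. The header of the count table shows no option for reads that match several places, so reads shared between near-identical actin genes are uncertain.

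Among the 6 actin genes, counted per kilobase of exon, Acta2 made up 40.9%, 38.5% and 34.3% of the sum in Foxp1-deficient libraries, against 47.1%, 52.9% and 44.6% in control libraries. The share of Acta2 was lower in every Foxp1-deficient library than in any control library. Actg2 made up 5.62%, 2.29% and 2.43% in Foxp1-deficient libraries, against 7.74%, 7.01% and 4.78% in control libraries, and here Foxp1-deficient library 1 overlapped the controls. The cytoplasmic actin genes had larger shares within pairs, but shares of one sum depend on each other. Their own levels per kilobase, for Actb and Actg1 alike, were higher in pair 1 and lower in pairs 2 and 3. Actb had 2185, 1195 and 1797 CPM per kilobase in Foxp1-deficient libraries, against 2087, 2194 and 2274 in control libraries. As shares, the values were as follows. Actb had 26.1%, 40.3% and 37.4% in Foxp1-deficient libraries, against 21.7%, 27.5% and 31.0% in control libraries, and Actg1 had 22.1%, 17.4% and 24.7% in Foxp1-deficient libraries, against 17.1%, 10.9% and 18.6% in control libraries. Both shares were higher within every pair, while across the groups they overlapped. Acta1, an actin gene of striated muscle, had 0.309%, 0.192% and 0.093% in Foxp1-deficient libraries, against 0.144%, 0.043% and 0.022% in control libraries. Its share was also higher within every pair, with overlap across the groups.

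The 4 genes of thin-filament proteins were lower in all pairs, by uneven amounts. Tagln (chr9:45929628-45936058, minus strand) encodes transgelin, an actin-binding protein that marks early smooth muscle. It had 3661, 4799 and 2482 CPM in Foxp1-deficient libraries, against 4151, 9173 and 3907 CPM in control libraries. The control library numbered 2 was far above all others, and the groups overlapped. Cnn1 (chr9:22099281-22109630, plus strand) encodes calponin, which restrains the actin-activated myosin motor. Its levels were 168, 59.1 and 80.6 CPM in Foxp1-deficient libraries, against 195, 243 and 157 CPM in control libraries. Only Foxp1-deficient library 1 overlapped the controls, and it exceeded only control library 3.

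Tpm2 (chr4:43514711-43523765, minus strand) encodes beta-tropomyosin, which lies along the actin filament. It had 281, 969 and 242 CPM in Foxp1-deficient libraries, against 294, 1570 and 427 CPM in control libraries. Both libraries numbered 2 were high, and the spread within a group exceeded the difference between groups. Lmod1 (chr1:135324807-135368065, plus strand) encodes leiomodin, an actin filament nucleator of smooth muscle. It had 23.6, 6.59 and 24.2 CPM in Foxp1-deficient libraries, against 36.6, 30.0 and 61.2 CPM in control libraries. Every Foxp1-deficient library lay below every control library. The log2 fold changes were -0.66 ± 0.66 for Tagln, -1.01 ± 0.49 for Cnn1, -0.59 ± 0.96 for Tpm2 and -1.27 ± 0.49 for Lmod1. Lmod1 had the smallest unadjusted p of the 10 genes (0.0352) in edgeR's quasi-likelihood test, and its adjusted p was 0.9998. Without control library 2, the log2 fold changes of Tagln and Tpm2 turned to 0.05 and 0.75.

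The 2 myosin subunits were measured at very different depth. Myh11 (chr16:14194527-14291408, minus strand) encodes the smooth muscle myosin heavy chain, a specific marker of the lineage. It had 49.4, 2.88 and 31.1 CPM in Foxp1-deficient libraries, against 94.3, 34.9 and 91.2 CPM in control libraries. Within each pair the Foxp1-deficient library was lower, while Foxp1-deficient library 1 exceeded control library 2. The value of Foxp1-deficient library 2 rested on 28 counts. Myl9 (chr2:156775420-156781658, plus strand) encodes the myosin regulatory light chain whose phosphorylation starts contraction. It had 512, 453 and 356 CPM in Foxp1-deficient libraries, against 588, 1457 and 628 CPM in control libraries. On this scale the groups did not overlap, with control library 2 far above the rest. Log2 fold changes were -1.44 ± 0.82 for Myh11 and -1.06 ± 0.59 for Myl9, with unadjusted p of 0.122 and 0.111 in edgeR's quasi-likelihood test.

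Des (chr1:75360329-75368579, plus strand) encodes desmin, the intermediate filament of muscle cells. It had 288, 269 and 257 CPM in Foxp1-deficient libraries, against 298, 731 and 509 CPM in control libraries. The Foxp1-deficient libraries lay close together, and the lowest control was only slightly above them. Des had a log2 fold change of -0.94 ± 0.50 (unadjusted p = 0.101, edgeR's quasi-likelihood test). Myocd (chr11:65176561-65269989, minus strand) had 12.6, 0 and 6.59 CPM in Foxp1-deficient libraries, against 10.4, 1.95 and 5.6 CPM in control libraries. It was higher in the Foxp1-deficient library of pairs 1 and 3 and at 0 counts in pair 2, against 22 counts in control library 2. A count of 0 in Foxp1-deficient library 2 allows up to 0.309 CPM. Its log2 fold change of 0.06 ± 1.42 had no stable sign, and with the replicate block it was -0.78 ± 1.19 (adjusted p = 0.881, edgeR's quasi-likelihood test). On CPM of the library total, Myl9, Des and Lmod1 were thus the 3 members whose groups did not overlap. All were lower in Foxp1-deficient libraries, and 2.07% of all genes tested were lower without overlap on that scale. After division by edgeR's TMM factors, Myl9 and Des overlapped through Foxp1-deficient library 2, and only Lmod1 stayed apart. The factor was 0.81 for Foxp1-deficient library 2, against 1.057 and 1.133 for control libraries 1 and 3. Of exon bases, 4.1% of Tagln are shared with Pcsk7 and 5.86% of Des with the predicted gene Gm15179, which had 0 counts.

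Differences within the pairs had the same order for most members. Pair 2 showed the largest difference for 8 genes, pair 3 was intermediate and pair 1 was smallest, and Tpm2, whose largest difference was in pair 3, departed from that order. Actg2 differed by -0.66, -3.04 and -1.59 log2 units in pairs 1, 2 and 3. Myh11 differed by -0.93, -3.60 and -1.55, and Acta2 by -0.40, -1.89 and -0.99. In pair 1 the differences of Des (-0.05) and Tpm2 (-0.07) were close to 0. Tpm2 differed by -0.70 and -0.82 in pairs 2 and 3. Myocd differed by 0.28 and 0.24 in pairs 1 and 3.

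**Figure D2:**
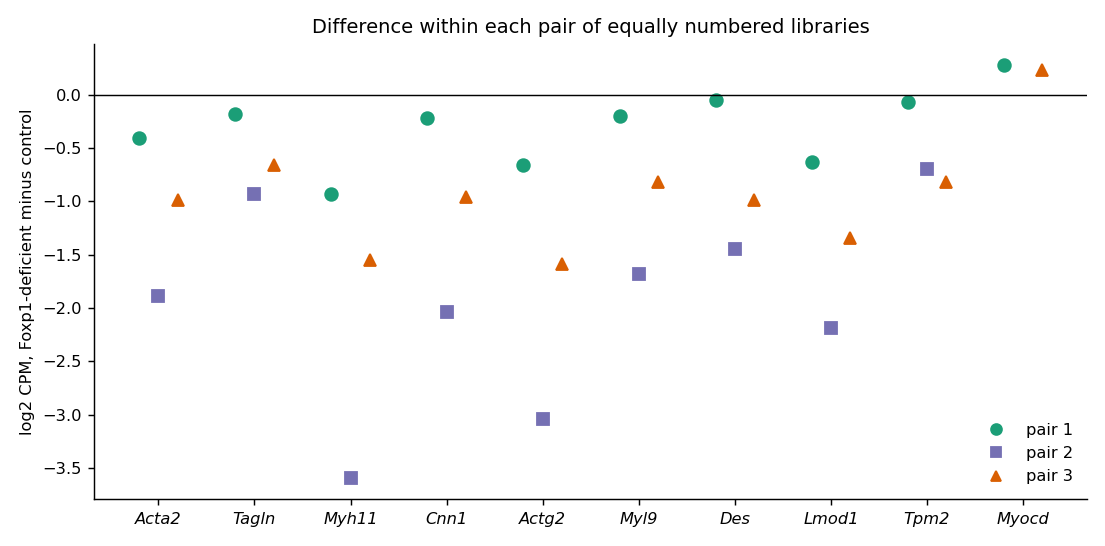
Log2 difference in CPM, Foxp1-deficient minus control, within each pair of equally numbered libraries (vertical axis) for each gene. Symbols mark pairs 1, 2 and 3. All pairs lie below 0 for 9 genes, pair 2 lies lowest for most, and Myocd has no value in pair 2 because its Foxp1-deficient library had 0 counts.

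The test used decided how many members passed the threshold once pairs were taken into account. With the replicate block, edgeR's quasi-likelihood test passed 0 genes of all tested (0%), and 9 of the 10 members were under an unadjusted p of 0.05 and lower, with Myocd the exception, against 2.17% of all genes under that p and lower. DESeq2 with the replicate block passed 5 members, all lower, where 1.43% of the genes it tested passed and 0.474% passed and were lower. These were Actg2 (adjusted p = 2.30e-04), Acta2 (0.00332), Myh11 (0.00471), Lmod1 (0.0376) and Myl9 (0.0489), with Tagln at 0.0699 and Cnn1 at 0.0711. By limma-voom with the replicate block, Myh11, Lmod1, Actg2 and Acta2 passed (adjusted p = 0.00636, 0.0177, 0.0242 and 0.0378), where 1.7% of all genes passed and 0.447% passed and were lower. Without the block, DESeq2 passed 0 members and 0.0426% of genes, and limma-voom passed 0 members and 0% of genes.

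The 4 genes that passed by both tools also passed in DESeq2 with the block after both libraries numbered 2 had been left out. There Actg2 had a log2 fold change of -1.13 (adjusted p = 8.62e-06), Myh11 -1.25 (4.27e-05), Acta2 -0.71 (0.00334) and Lmod1 -1.0 (0.0352). Of all genes in that fit, 1.86% passed and 0.619% passed and were lower. Myl9 did not pass there (-0.52, adjusted p = 0.154). That fit rests on 4 libraries in 2 pairs and was chosen after the values were seen. In edgeR's fit with the block on the same 4 libraries, 0 members and 0.19% of all genes passed. Tagln, Cnn1, Des, Tpm2 and Myocd passed in none of the fits run.

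**Figure D3:**
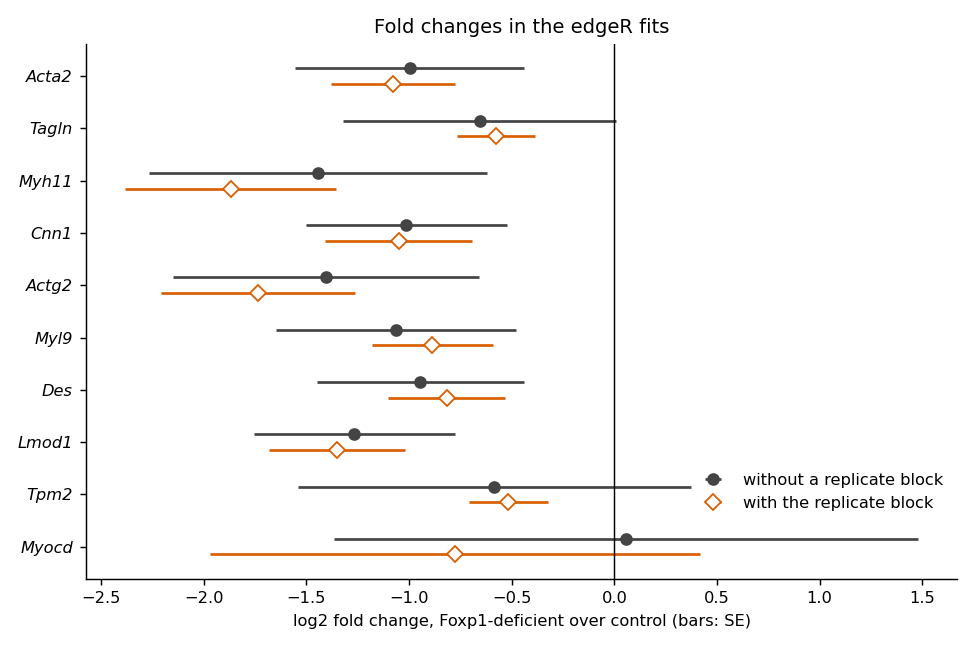
Log2 fold change, Foxp1-deficient over control (horizontal axis), with standard errors as bars, for each gene in edgeR's fit without a replicate block (filled circles) and with it (open diamonds). The block narrows the bars of most genes, and the sign of Myocd differs between the fits, 0.06 without and -0.78 with the block.

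Compared per kilobase of exon, the order of levels spanned a wide range in both groups. In Foxp1-deficient libraries Tagln (mean 2300 CPM per kilobase) and Acta2 (2071) led, followed by Myl9 (379), Actg2 (218), Tpm2 (171), Des (72.3), Cnn1 (43.3), Lmod1 (4.59), Myh11 (4.19) and Myocd (0.996). In control libraries Acta2 (4005) stood before Tagln (3622), followed by Myl9 (767), Actg2 (551), Tpm2 (263), Des (137), Cnn1 (83.7), Myh11 (11.1), Lmod1 (10.8) and Myocd (0.93). Ranges of neighbours in this order overlapped except between Acta2 and Myl9, Tpm2 and Des, and Cnn1 and Lmod1 in Foxp1-deficient libraries. In control libraries only Tagln and Myl9, Cnn1 and Myh11, and Lmod1 and Myocd were separated. The order of Tagln and Acta2, which differed between the groups, was within the spread of both.

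Ratios between members in the same library do not depend on how libraries are scaled. Actg2 per 100 Acta2, per kilobase, was 13.7, 5.95 and 7.08 in Foxp1-deficient libraries, against 16.4, 13.2 and 10.7 in control libraries. It was lower in every pair, with library 1 of the Foxp1-deficient group inside the control range (exact permutation test, two-sided p = 0.3). Tagln per 100 Acta2 went the other way within pairs, with 67.4, 265 and 94.9 in Foxp1-deficient libraries, against 57.9, 137 and 75.3 in control libraries (exact permutation p = 0.6). Acta2 was thus lower than Tagln in relative terms in each pair, with wide overlap between the groups.

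Contractile genes were also set against non-muscle relatives, which were chosen after values were seen. Myh11 per 100 Myh9, the non-muscle myosin heavy chain gene, was 9.29, 3.26 and 4.76 in Foxp1-deficient libraries, against 26.9, 29.1 and 14.0 in control libraries. Lmod1 per 100 Tmod3, which encodes a tropomodulin of non-muscle cells, was 15.6, 27.2 and 18.4 in Foxp1-deficient libraries, against 29.0, 124 and 61.1 in control libraries. In both ratios all Foxp1-deficient libraries lay below all control libraries, at an exact permutation p of 0.1, the smallest that 3 against 3 can give. Acta2 per 100 Actb was 157, 95.4 and 91.8 in Foxp1-deficient libraries, against 217, 192 and 144 in control libraries, and overlapped through library 1 (exact permutation p = 0.2). Tagln per 100 Tagln2 was 404, 583 and 385 in Foxp1-deficient libraries, against 651, 942 and 534 in control libraries (exact permutation p = 0.2). Tpm2 per 100 Tpm4 was 14.9, 293 and 16.0 in Foxp1-deficient libraries, against 15.9, 247 and 24.2 in control libraries, so it differed more between library numbers than between groups. The ratios of Des to Vim, Cnn1 to Cnn3 and Myl9 to Myl12a were lower in every pair with overlap between the groups. Over the 13 ratios compared, the lowest adjusted p was 0.65 by the exact permutation test.

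Longer members tended to be lower in the libraries numbered 2. Relative to the mean of libraries 1 and 3 of the same group, on the log2(CPM + 1) scale, Tpm2 was higher in library 2 by 1.89 in the Foxp1-deficient and 2.14 in the control group. Myh11 differed by -3.37 in the Foxp1-deficient and -1.39 in the control group, and Myocd differed by -3.34 in the Foxp1-deficient and -1.55 in the control group. Over the 10 genes, Spearman's rank correlation between this difference and exon length was -0.52 in the Foxp1-deficient and -0.60 in the control group. Over all 14311 genes it was -0.36 in both groups, a description across genes of the same libraries. Acta2 and Actg2, of 1781 and 1557 bases, differed by -1.06 and -1.78 in the Foxp1-deficient group, against 0.13 and 0.13 in the control group. The part of RNA quality in the member values was not tested.

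**Figure D4:**
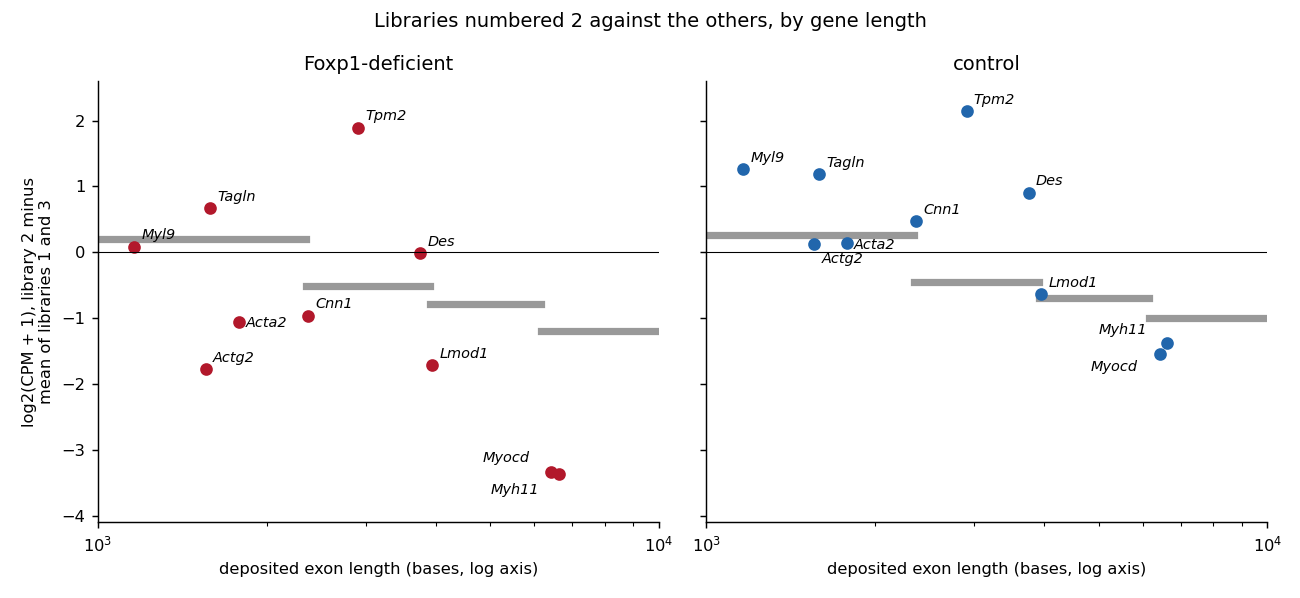
Difference of library 2 from the mean of libraries 1 and 3 of the same group in log2(CPM + 1) (vertical axis) against exon length in bases (log axis), Foxp1-deficient left and control right. Points are the 10 genes and grey bars are medians of all genes in each length quartile. The bars are lower at greater length in both groups, and Myh11 and Myocd, the longest members, lie lowest.

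Some members followed each other more closely than others across the 6 libraries. In log2(CPM + 1), Actg2 followed Acta2 at r = 0.995 and Cnn1 followed Acta2 at 0.985 (Pearson, 6 libraries that share depth, pairs and composition). Lmod1 followed Myh11 at 0.95, and Myl9 followed Tagln and Des at 0.92 each. Tpm2 followed Tagln at 0.90, while its r was -0.07 with Acta2 and -0.50 with Myh11. The mean standardized profile of the 9 members averaging at least 10 CPM was most like Cnn1 among the members (r = 0.95) and least like Tpm2 (0.34). Each of these members is itself part of the profile, so their r cannot be set against those of non-members. Among 9259 genes, the 5 non-members most like the member profile were Srprb, Itpa, Ranbp1, Utp11l and Cycs, with r of 0.98, 0.98, 0.98, 0.97 and 0.96. With TMM-scaled CPM or with deviations from pair means, 0 of these 5 remained among the top 5.

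Accessory contractile and cytoskeletal genes anchor the filaments to membranes and to each other. Of 28 tested, 19 had a negative log2 fold change (median -0.25), and 0 passed edgeR's quasi-likelihood test. Synm encodes synemin, which joins desmin filaments to the membrane. It had 19.8, 12.4 and 8.02 CPM in Foxp1-deficient libraries, against 56.2, 34.8 and 19.2 CPM in control libraries, lower in every pair with overlap through library 1 (log2 fold change -1.44 ± 0.58). It passed DESeq2 with the replicate block (adjusted p = 7.83e-04). Itga7, which encodes an integrin subunit for laminin, had 76.9, 79.8 and 192 CPM in Foxp1-deficient libraries, against 13.4, 33.6 and 71.8 CPM in control libraries. Every Foxp1-deficient library lay above every control library (log2 fold change 1.55 ± 0.63; adjusted p = 6.01e-06 in DESeq2 with the block). Nexn, which encodes nexilin, had 66.3, 24.9 and 66.9 CPM in Foxp1-deficient libraries, against 79.6, 77.0 and 106 CPM in control libraries, with no overlap. Hspb6 had 7.49, 2.27 and 11.1 CPM in Foxp1-deficient libraries, against 8.26, 16.8 and 14.9 CPM in control libraries (log2 fold change -1.06 ± 0.64). The value of Foxp1-deficient library 2 rested on 22 counts, and without both libraries numbered 2 the log2 fold change was -0.32. Tpm1, which encodes alpha-tropomyosin and was picked after its values were seen, had 4072, 947 and 2456 CPM in Foxp1-deficient libraries, against 4834, 2493 and 3935 CPM in control libraries (adjusted p = 0.0386 in DESeq2 with the block).

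The contractile genes' own regulator, Srf, lay at like levels in both groups. Of 15 tested SRF cofactors and targets, 6 had a negative and 9 a positive log2 fold change (median 0.03), and 0 passed edgeR's quasi-likelihood test. Srf had 132, 123 and 132 CPM in Foxp1-deficient libraries, against 125, 139 and 172 CPM in control libraries. Mkl1 and Mkl2, which encode actin-regulated SRF coactivators, had log2 fold changes of 0.09 and 0.02. Elk1, Elk3 and Elk4, which encode ETS-family partners of SRF, had log2 fold changes of 0.41, -0.17 and 0.24. Klf4 encodes a zinc finger factor known to repress smooth muscle genes in arterial cells. Its levels were 149, 33.7 and 120 CPM in Foxp1-deficient libraries, against 13.9, 11 and 31.1 CPM in control libraries. Every Foxp1-deficient library was above every control library. The log2 fold change of Klf4 was 2.42 ± 0.58 (adjusted p = 0.9998, edgeR's quasi-likelihood test), and DESeq2 and limma-voom with the replicate block passed it (adjusted p = 4.52e-07 and 0.00214).

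Genes that control contraction had negative log2 fold changes in 11 of 19, with a median of -0.04. Among its genes of lowest p, Rgs2, Agtr1a and Ednra were at 0 to 11.8 CPM. Of 16 ureter and kidney smooth muscle regulators, 11 were lower (median -0.17). In all 3 pairs 6 were lower, against 16.1% of all genes, and 2 were higher. The higher ones were Tbx18 and Tshz3, with log2 fold changes of 0.16 and 0.80. Bmp4, a signal for ureter smooth muscle, had 62.4, 88.1 and 64.8 CPM in Foxp1-deficient libraries, against 92.8, 148 and 107 CPM in control libraries. These CPM did not overlap, but after TMM scaling the groups overlapped through Foxp1-deficient library 2. Id2, a target of BMP signalling, had 89.3, 38.8 and 80.6 CPM in Foxp1-deficient libraries, against 137, 68.9 and 131 CPM in control libraries, lower in every pair. Both passed DESeq2 with the replicate block (adjusted p = 0.0331 for Bmp4 and 0.0258 for Id2). Of 15 non-muscle counterparts, 9 were lower (median -0.14).

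**Figure D5:**
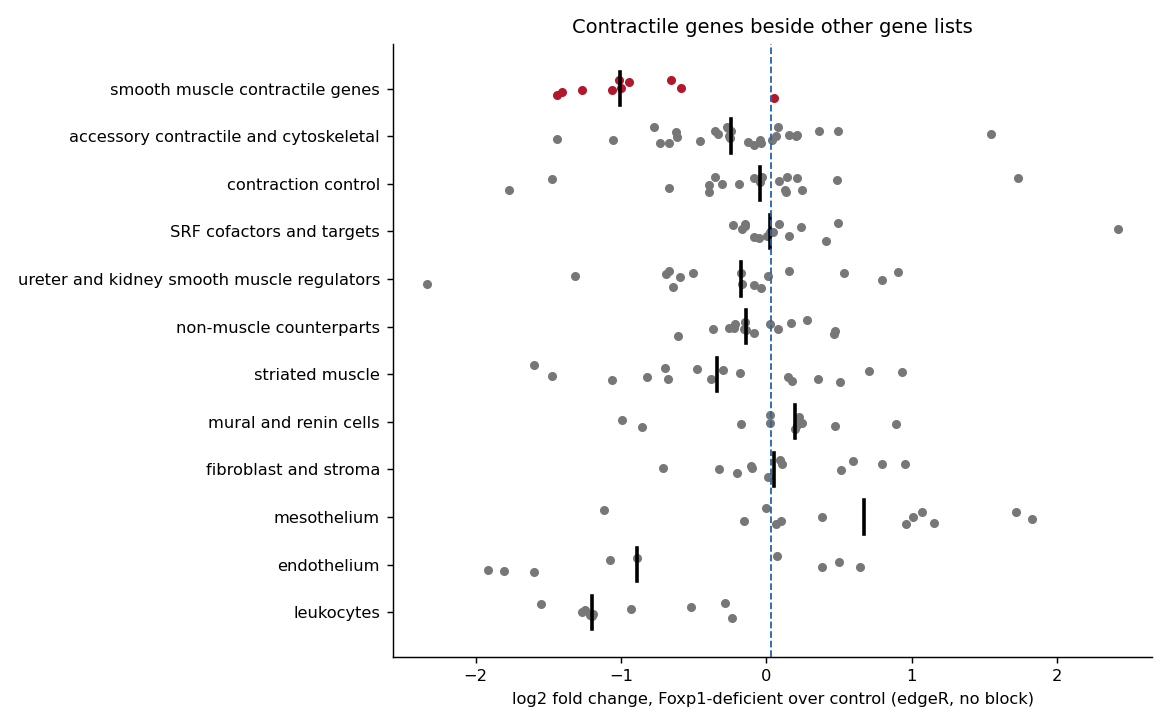
Log2 fold change, Foxp1-deficient over control, in edgeR's fit without a block (horizontal axis) for the tested genes of each list shown, 1 point per gene. The lists for tubule epithelium, for neural crest, glia and neuron, and for adipocytes are not drawn. Black bars are list medians and the dashed line is the median of all genes tested. The contractile genes have a median of -1.01, against -0.25 for accessory genes and 0.03 for SRF cofactors and targets.

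Markers of other cell types were measured beside the contractile genes. Leukocyte markers were all lower (10 of 10, median -1.20), with sums of 59.8, 271 and 652 CPM in Foxp1-deficient libraries, against 336, 469 and 1232 CPM in control libraries. Mesothelium markers were mostly higher (9 of 12, median 0.67), with sums of 4055, 5997 and 4721 CPM in Foxp1-deficient libraries, against 2881, 2607 and 2653 CPM in control libraries. Fibroblast and stroma markers had a median of 0.05, with sums of 13501, 3511 and 23588 CPM in Foxp1-deficient libraries, against 13481, 6142 and 22518 CPM in control libraries. Markers of mural and renin cells, neighbours of vascular smooth muscle, had 3 of 11 lower and a median of 0.20. Their sums were 441, 122 and 405 CPM in Foxp1-deficient libraries, against 427, 190 and 448 CPM in control libraries. Pdgfrb, which marks pericytes and stroma, had 26.5, 8.96 and 26.9 CPM in Foxp1-deficient libraries, against 60.4, 22.3 and 39.6 CPM in control libraries, while Rgs5 was at 0 in both libraries numbered 2.

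Genes of striated muscle, which shares several contractile proteins with smooth muscle, had 10 of 16 lower and a median of -0.34. Their sums were 1788, 3890 and 1453 CPM in Foxp1-deficient libraries, against 2396, 6753 and 1561 CPM in control libraries. Actc1, the cardiac actin gene, had 672, 61.5 and 77.4 CPM in Foxp1-deficient libraries, against 963, 213 and 115 CPM in control libraries. Acta1 went the other way in every pair. Per kilobase it had 25.9, 5.70 and 4.46 CPM in Foxp1-deficient libraries, against 13.8, 3.41 and 1.65 in control libraries. Myod1, which defines skeletal muscle cells, was at 0 in 5 of the 6 libraries. Endothelium markers had 5 of 9 lower with a median of -0.89. Their sums were 170, 120 and 208 CPM in Foxp1-deficient libraries, against 194, 71.6 and 171 CPM in control libraries, lower in pair 1 only. Tubule epithelium markers had 4 of 11 lower with a median of 0.30. Their sums were 1020, 1198 and 1279 CPM in Foxp1-deficient libraries, against 360, 711 and 877 CPM in control libraries, with no overlap. The median tubule marker lay below 1 CPM in the libraries numbered 1 and 2, so the sums there came from a part of the list. Krt8, the gene of lowest unadjusted p in the list, had a log2 fold change of 1.32. Cdh16 was not higher in the Foxp1-deficient library of any pair, so the sums do not describe all tubule markers. The part of these cell types in the differences of the contractile genes was not tested.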

How the data were processed

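Ribosome-bound RNA was counted in 6 libraries. The deposited table holds raw counts for each gene symbol. The authors made them using featureCounts 1.5.1 over exons in paired mode (mm10, annotation version 86), per the file headers. Its command has no strand option, so antisense reads cannot be told apart. Per the submitters' processing notes, DESeq2, STAR, Trimmomatic, FastQC, deepTools and SAMtools are also named, with settings not given in the sources used here. Gene length in bases, in the authors' deposited table, was used for levels per kilobase and for the comparison by length. Groups and replicate numbers came from the titles.

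Counts were tested with edgeR 4.0.16 in R 4.3.3 (TMM factors, filterByExpr, quasi-likelihood F test, two-sided, Benjamini-Hochberg adjustment over 14311 genes, threshold 0.05). DESeq2 1.42.0 and limma 3.58.1 (voom, quality weights), a block for replicate number, other size factors and filters, and omission of libraries were alternatives. Ratios were compared by exact permutation with scipy 1.17.1, and figures were drawn with matplotlib 3.10.9. The procedure was tested on simulated data.

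Deviations from group means correlated at r = 0.71, 0.69 and 0.72 between libraries with the same number, and at -0.55 to 0.11 between others. The numbers were therefore taken to pair libraries, from the data and not from the labels.

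Members, lists and tests were chosen with earlier results of these data known. Genes named besides the members were taken from the up to 4 genes of lowest unadjusted p per list, genes that define a cell type, the actins, and the 5 genes of most similar pattern. Outside this rule, Foxp1 was named as the targeted gene. Srf, Mkl1, Mkl2, Tpm1, Tbx18, Tshz3 and the non-muscle genes used in ratios were chosen after values were seen. Promoters are from RefSeq (GRCm38.p6), matched by symbol.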

Additional observations from a re-analysis of the deposited data

How the results depend on the processing

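Over 20 alternatives, Acta2, Myh11, Cnn1, Actg2, Myl9, Des and Lmod1 kept a negative log2 fold change in each, and Tagln and Tpm2 in 19. Tagln turned to 0.048 and Tpm2 to 0.75 without control library 2. Myocd, not tested under the stricter filter, turned to -0.001 with upper quartile factors, -0.78 with the replicate block and -0.96 in DESeq2 with the block. Leaving out 1 library at a time, log2 fold changes ran from -1.53 to -0.79 for Acta2, -1.10 to 0.05 for Tagln, -2.20 to -0.93 for Myh11, -1.52 to -0.69 for Cnn1, -2.60 to -1.02 for Actg2, -1.33 to -0.31 for Myl9, -1.25 to -0.42 for Des, -1.51 to -0.93 for Lmod1, -1.81 to 0.75 for Tpm2 and -0.98 to 0.72 for Myocd. The members lower stayed between 8 and 10, and other size factors moved the median of all genes by at most 0.03.

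The genes past the threshold, 0 in edgeR's quasi-likelihood test, numbered 6 in DESeq2, 169 in DESeq2 with the replicate block, 244 in limma-voom with the block, 29 in edgeR with the block without both libraries numbered 2, and 240 in DESeq2 with the block without them, an alternative chosen after seeing the data. Log2 fold changes that passed in DESeq2 with the block, limma-voom with the block and DESeq2 with the block without libraries numbered 2 were -1.08, -0.85 and -0.71 for Acta2, -1.94, -1.32 and -1.25 for Myh11, -1.74, -1.34 and -1.13 for Actg2, and -1.36, -1.12 and -1.0 for Lmod1. Myl9 passed in the first of these alone, at -0.89. The cause of these changes was not tested. Of the 5 genes of most similar pattern, 0 were shared with TMM-scaled CPM and 0 with deviations from pair means. Taking the 13 ratios from counts in place of counts per kilobase multiplies each by a constant, so it cannot alter their log2 differences and tests nothing. Depth limits Myocd, Myh11 and Lmod1 most in Foxp1-deficient library 2, with 0, 28 and 64 counts. With 3 libraries a group, an exact test cannot go below p = 0.1.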
